A study of Mus musculus with 12 samples.

Results

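The 6 kidneys with rhabdomyolysis-induced acute kidney injury (RIAKI) were described on their own, as 6 of the 12 samples of the series, to find out which transcripts filled the injured kidney and which differed between injured animals. They were chosen by their group label only, and no sham library entered any value given here. Each library came from 1 wild-type male C57BL/6NCrl mouse. Drinking water was withheld for 19 h, glycerol at 50% was then injected into the left hind limb muscle (0.05 ml for each 10 g of weight) under isoflurane, carprofen (Rimadyl, 5 mg/kg) was given for pain, and the kidney was taken at 24 h. The study treated 10 mice in this way, and which of them were sequenced is not stated. The labels give no batch, so that animal, injury and library preparation cannot be told apart within a replicate.

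Glycerol destroys muscle fibres at the injection site, and the released myoglobin and heme are filtered and taken up mainly by the proximal tubule. Havcr1 encodes kidney injury molecule 1 (KIM-1), a surface receptor of injured proximal tubule cells and the usual transcript marker of tubular injury. Hmox1 encodes heme oxygenase 1, which splits heme into biliverdin, iron and carbon monoxide and is switched on by heme, by oxidants and by heat. Injured cells also call on chaperones: heat shock proteins refold proteins in the cytosol, and a separate set, of which Hspa5 (BiP) is the best known, does so in the endoplasmic reticulum (ER).

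The RNA was sequenced from its 3′ end with a molecular tag, so that a level in reads per 1000000 counted reads (rpm) counts transcript ends and is not divided by transcript length. The mitochondrial ribosomal RNAs mt-Rnr1 and mt-Rnr2 took between 34.1% and 58.9% of the exon reads of a library and were left out of the total, which leaves 648268 to 1145627 reads per library. A count of 3 reads then corresponded to 2.62 to 4.63 rpm, and 12786 to 14798 genes had at least 1 read. No pair of libraries agreed within sampling noise. Kidney identity was checked from marker genes. Slc34a1, Lrp2 and Slc5a2 of the proximal tubule were read in every library, and so was the podocyte gene Nphs1, between 75.6 and 114 rpm. The skeletal muscle genes Ckm and Acta1 were at 0 in all 6 libraries, as were 8 of 12 muscle genes listed, the adrenal genes Cyp11b1 and Th, and the plasma cell gene Igkc. The macrophage gene Adgre1 had 2 reads in all.

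Mitochondrial transcripts led the injured kidney. The 25 genes with the highest mean level took 30.5% of the counted reads, between 28.7% and 33.8% in single libraries, and 180 genes together took 50% of them. Of these 25, 10 encode respiratory chain proteins in the mitochondrial genome. The highest was mt-Atp6, a subunit of ATP synthase, at 31393, 36725, 45671, 47839, 48396 and 39178 rpm in replicates 1 to 6. The next was mt-Co3, a subunit of cytochrome oxidase, at 20586, 27822, 47178, 38982, 36349 and 40788 rpm. Both were lowest in replicate 1. Gm42418, a non-coding transcript that overlaps ribosomal RNA sequence, followed mt-Cytb, at 18096, 20817, 29337, 18621, 18074 and 18254 rpm, with replicate 3 above the other libraries.

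Among nuclear genes the top ranks held cytoskeleton, iron storage, antioxidant and secreted proteins. Actb, the cytoplasmic actin, was at 22265, 30307, 16393, 18634, 16742 and 11989 rpm, highest in replicate 2 and lowest in replicate 6. Ftl1 and Fth1, the light and heavy chains of the iron store ferritin, stood at 14184 ± 2715 and 5764 ± 481 rpm (mean ± SD, n = 6). Only 47.5% of the Ftl1 reads mapped to 1 place, since near-identical copies such as Ftl1-ps1 exist, and its level is uncertain to that extent. The antioxidant enzymes Gpx3 (plasma glutathione peroxidase, made by the proximal tubule), Prdx1 (a peroxiredoxin) and Sod1 (cytosolic superoxide dismutase) stood at 13740.1 ± 953, 7957 ± 793 and 7458 ± 626 rpm. Spp1, which encodes the secreted phosphoprotein osteopontin, reached 7471 ± 1218 rpm. All 25 genes differed between animals beyond counting noise (the Poisson error of the reads), as did 39.3% of all genes tested. Of the 25, 0 varied beyond the dispersion trend, that is, more than genes of like level, as did 1.89% of all. Their highest library exceeded the lowest by 1.20 to 2.58 times, the least in Gpx3 and the most in Selenop, a selenium carrier, at 2199.7, 3525, 3386, 4178, 5676 and 4473 rpm. Selenop was lowest in replicate 1. Kap, the androgen-responsive kidney protein of the male proximal tubule, was lowest in replicates 1 and 2, at 5222, 5891, 10778, 8673, 11915 and 10390.4 rpm.

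**Figure D1:**
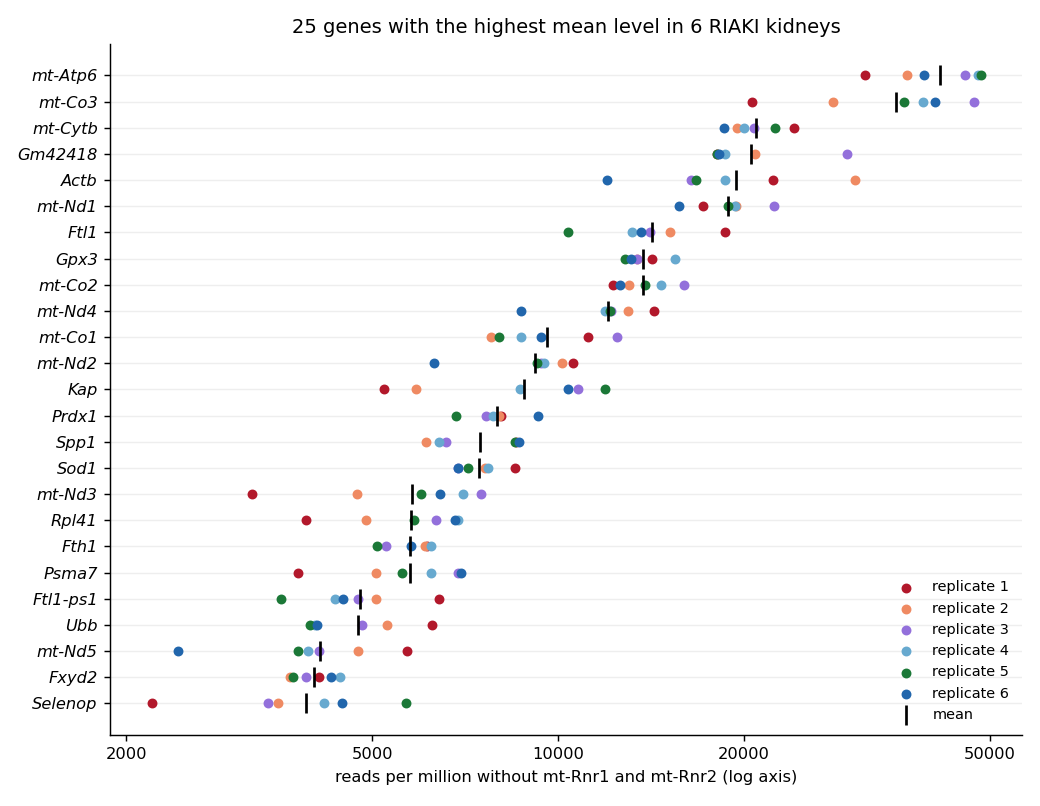
Levels of the 25 genes with the highest mean in the 6 RIAKI kidneys, as rpm without mt-Rnr1 and mt-Rnr2 on a log axis. Points are single libraries coloured by replicate and black bars are means; mt-Atp6 stands first, and replicate 1 lies lowest for mt-Co3, mt-Nd3, Kap and Selenop.

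Variation between the 6 animals was measured as the coefficient of variation (CV) of the levels in excess of what counting error alone gives, and was tested on the reads. A gene with at least 60 reads over the 6 libraries entered 2 tests in edgeR, each a goodness of fit with Benjamini-Hochberg adjustment over all 6993 genes tested at 0.05. The first asks whether the animals differ by more than Poisson counting error. The second asks whether they differ by more than other genes of like level, against the fitted dispersion trend. The first was passed by 2749 genes (39.3%) and the second by 132 (1.89%), with 518 at an unadjusted p under 0.05 in the second. Both counts depended on the processing: with mitochondrial rRNA in the library size there were 4438 genes varying beyond counting noise and 73 genes varying beyond the dispersion trend, and by DESeq2 dispersion outliers 51 beyond the trend. The median excess CV was 16.2%, beside a median counting CV of 18.3%. At higher counts most genes differed: of 660 genes with a mean of at least 200 reads per library, 619 passed the first test. The median highest library of these 660 was 1.56 times the lowest. Hyou1, just inside the trend threshold, had an excess CV of 47.1% and an adjusted p of 0.0499, and Mt1, just outside it, had 43.4% and 0.0506.

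**Figure D2:**
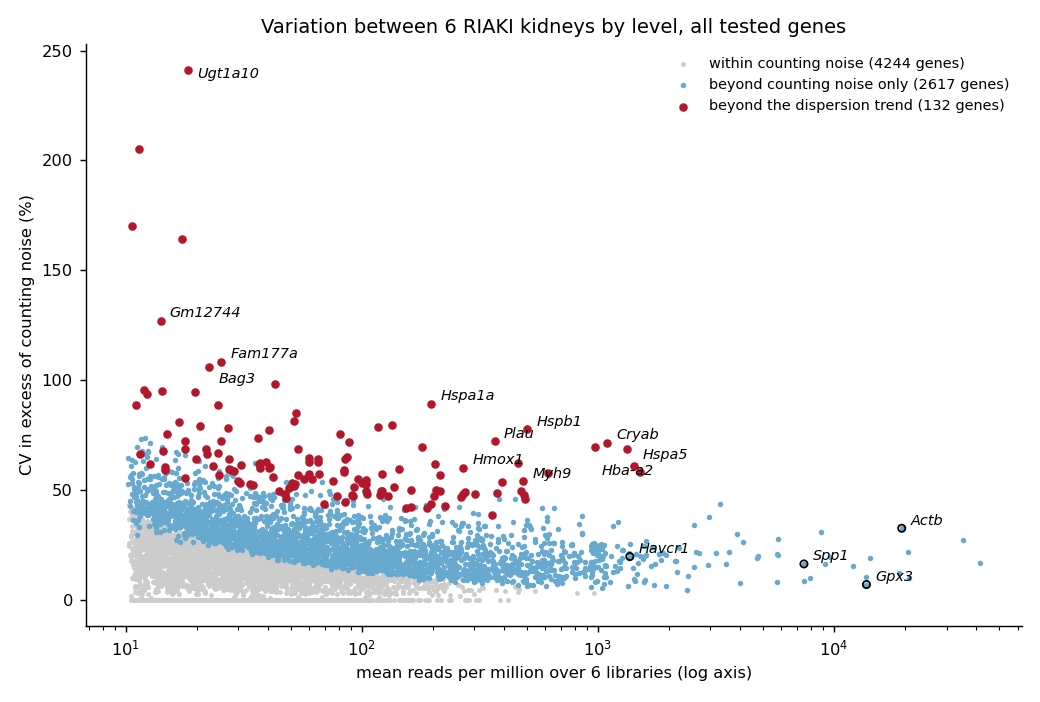
CV in excess of counting noise (%) against the mean level in rpm (log axis) for 6993 genes; each point is a gene over 6 libraries. The 132 genes beyond the dispersion trend lie above the main cloud, with Hspa1a at 89.3% and Plau at 72.2%, while Havcr1 lies within it at 19.6%.

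The animals did not contribute evenly to this variation. Of the 132 genes beyond the trend, 73 were highest in replicate 1, 23 in replicate 2 and 23 in replicate 5, and 67 were lowest in replicate 6. Replicates 1 and 2 together thus held the highest value for 72.7% of them, beside 50.0% of all tested genes, and replicate 6 the lowest for 50.8%, beside 21.3%. The first principal component over 4742 genes carried 42.9% of the variance, with scores of 24.3 and 17.5 in replicates 1 and 2, -10.0, -4.43 and -6.31 in replicates 3, 4 and 5, and -21.0 in replicate 6. The share of intron reads, a sign of unspliced RNA, was 9.81% and 8.49% in replicates 1 and 2, 9.01% in replicate 3 and 7.30% to 8.34% in the other libraries. Its part in the variation was not tested. Without replicate 5 or without replicate 6, 86 genes in place of 132 passed the second test. Of the 132 genes, 22 had under 50% of their reads mapped to 1 place, beside 203 of all 6993 tested genes. Genes with shared reads were thus more frequent among the calls than among all tested genes.

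How far a call beyond the trend rested on 1 animal was read by leaving each library out. Of the 62 genes beyond the trend named here, 40 lost the call without at least 1 library, 27 of them without replicate 1. Hmox1, Hspa1a, Hspb1, Cryab, Hspa5, Creld2, Fosl1, Egr1, Cdkn1a, Srxn1, Sprr1a, Kdm6b, Zyx and Col1a1 kept it whichever library was left out. Bag3 and Fos fell under the read minimum without 1 of the libraries and kept the call in the rest. In replicates 3 to 6 alone, 33 of the 62 lost it. Hmox1, Hspa5 and Creld2 then had an adjusted p of 0.999, Hspa1a of 0.671 and Hspb1 of 0.589, whereas Cryab, Egr1, Kdm6b and Zyx still passed. Under TMM scaling 16 of the 62 lost the call, and with rRNA counted in the library size 24 did.

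By the rule for named genes, the 25 genes with the largest excess CV had values between 68.4% and 108%, and 19 of them were highest in replicate 1. Among them, Bag3, a co-chaperone of HSP70, was at 69.8, 25.1, 9.26, 12.7, 16.7 and 2.02 rpm. Fosl1, a subunit of the transcription factor AP-1, was at 120.5, 63.8, 10.8, 31.1, 20.6 and 11.1 rpm. Sprr1a, an envelope protein of stressed epithelia, was at 323, 197, 55.5, 123, 63.7 and 47.5 rpm. In all 3 genes replicate 1 was highest and replicate 2 second.

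The others belonged to several kinds. Hspa1a, Hspb1 and Cryab are chaperones, Herpud1 and Creld2 belong to the ER, and Egr1, Zfp36, Kdm6b and Phlda1 are early response genes or act with them. Kdm6b, a histone demethylase, was at 246, 222, 54.0, 88.7, 73.5 and 21.2 rpm, and Zyx, a focal adhesion protein, at 73.3, 84.3, 29.3, 36.8, 12.7 and 6.07 rpm, both with replicates 1 and 2 on top and replicate 6 lowest. Ubald1, the splicing factors Sf3b4 and Snrpa, Samd4b and the tight junction protein Cgn were highest in replicate 1 or 2, with excess CVs from 68.4% to 88.4%, and so were Gm21988 and Gm47283. Calls were lost, with the adjusted p in parentheses, for Zfp36 without replicate 1 (0.533), Phlda1 without replicate 1 (0.197), Snrpa without replicate 1 or 5 (0.103 to 1.00), Samd4b without replicate 2 (0.604), Cgn without replicate 1, 2, 3, 5 or 6 (0.0587 to 0.601) and Gm47283 without replicate 1 (0.987). The largest excess CV of the 25, 108.2%, was that of Fam177a, a case of shared reads: it was read at 45.4, 0, 55.5, 0, 51.9 and 0 rpm, and 1.42% of its reads mapped to 1 place. For Gm21988 that share was 19.8%.

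Heat shock genes were highest in replicate 1 for 13 of 18 genes. Of 19 listed, 18 were tested, 16 varied beyond counting noise and 6 beyond the trend, beside 39.3% and 1.89% of all genes. The 6 were Bag3, Hspa1a, Hspb1, Cryab, Dnajb1 and Hsph1. Hspb1 (ENSMUSG00000004951, chr5:135887919-135889563, + strand), which encodes the small heat shock protein HSP27, was at 1188, 744, 364, 319, 196 and 206 rpm. Replicates 1 and 2 lay above the other libraries, and the highest was 6.06 times the lowest (excess CV 77.5%, edgeR adjusted p = 9.8e-09). Hspa1a (ENSMUSG00000091971, chr17:34969190-34972156, - strand), an inducible HSP70, was at 523, 273, 148, 65.6, 82.3 and 91.0 rpm (7.97-fold, adjusted p = 3.6e-11). Its neighbour Hspa1b, nearly identical in sequence and named after its values were seen, ran from 66.8 to 220.0 rpm, with the same 2 replicates on top. About 90.7% and 89.1% of the reads of these 2 genes mapped to 1 place.

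Cryab, the small chaperone alpha-B crystallin, which the thin limb of the loop of Henle also expresses, was at 2489, 1445, 714, 1032, 543 and 358 rpm. Of 4 thin limb genes tested, 3 varied beyond counting noise and 1, Cryab itself, beyond the trend, beside 39.3% and 1.89% of all genes. Dnajb1, an HSP40 partner of HSP70, ran from 185 rpm in replicate 1 to 36.3 rpm in replicate 5, and Hsph1, an HSP110, from 187 to 56.4 rpm (both named after their values were seen). The trend call was lost for Dnajb1 without replicate 1 (0.318) and Hsph1 without replicate 1, 2 or 4 (0.052 to 0.325) (adjusted p in parentheses). The constitutive members were steadier. Hspa8, the HSP70 of unstressed cells, was at 1068, 944, 1041, 811, 889.6 and 868 rpm, and Hspe1, a mitochondrial chaperonin, at 1253, 1055, 926, 908, 849 and 903 rpm. The summed level of the list was 10338, 7874, 5745, 4964, 5082 and 4736 rpm, highest in replicate 1 and lowest in replicate 6.

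ER chaperone genes had the same 2 libraries on top. All 18 genes were tested, 18 varied beyond counting noise and 6 beyond the trend (Herpud1, Creld2, Hspa5, Manf, Hsp90b1 and Hyou1), beside 39.3% and 1.89% of all genes and, for the first test, 619 of the 660 genes with a mean of at least 200 reads. Hspa5 (ENSMUSG00000026864, chr2:34771970-34777547, + strand), which encodes BiP, was at 2771, 2231, 1117, 765, 877 and 753 rpm, with replicates 1 and 2 above the rest (3.68-fold, edgeR adjusted p = 9.9e-05). Creld2 (ENSMUSG00000023272, chr15:88819646-88826683, + strand), a secreted ER stress protein, was at 359, 326, 105, 112, 97.0 and 85.0 rpm, and the same 2 libraries lay above the others. Herpud1, of ER-associated degradation, was at 134, 59.2, 20.1, 27.6, 33.3 and 35.4 rpm, with replicate 1 alone far above. Hyou1, by contrast, was highest in replicate 5, at 97.8, 122, 67.9, 54.1, 164 and 48.5 rpm. The trend call was lost for Herpud1 without replicate 1 (0.79), Manf without replicate 1 or 4 (0.155 to 0.958), Hsp90b1 without replicate 2 or 4 (0.143 to 0.216) and Hyou1 without replicate 2, 3, 4, 5 or 6 (0.0556 to 0.621) (adjusted p in parentheses). The summed level was 7181, 6465, 3698, 2964, 3720.1 and 3119 rpm.

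The promoters of these 2 lists were read for the elements that heat shock factor 1 and the ER stress factors are known to bind. Promoter sequence was taken from RefSeq on GRCm38.p6 as the 250 bases before each RefSeq transcript start, for 14 heat shock and 16 ER chaperone genes. The heat shock element was searched as GAANNTTC and the ER stress element, ERSE, as CCAAT and CCACG with 9 free bases between them, each on both strands. A listed gene was counted where any of its promoters held the element, whereas the share over all is of single promoters, so the 2 are not alike. The first was present in 6 of 14 heat shock genes (Dnaja1, Hspa1a, Hspa1b, Hspb1, Hspd1 and Hspe1), in 0 of 16 ER chaperone genes and in 6.69% of all 32851 promoters. The second was present in 7 of 16 ER chaperone genes (Calr, Canx, Creld2, Dnajc3, Hsp90b1, Hspa5 and Pdia6), in 0 of 14 heat shock genes and in 0.113% of all promoters. A match of letters is a description and not evidence of binding. Bag3, Cryab, Dnajb1 and Hsph1, also beyond the trend, were not among the genes found to hold the heat shock element. Herpud1, Manf and Hyou1 were not among those found to hold the ERSE, whereas the steadier Hspe1 held the heat shock element. Promoters are shown for 2 strongly varying genes of each list that hold its element, to let the elements be read in place. They run 5′ to 3′ on the gene's strand, with the matched element in capitals. In Creld2 the capitals hold the element on the opposite strand.
Hspa1a, chr17:34972157-34972406, - strand: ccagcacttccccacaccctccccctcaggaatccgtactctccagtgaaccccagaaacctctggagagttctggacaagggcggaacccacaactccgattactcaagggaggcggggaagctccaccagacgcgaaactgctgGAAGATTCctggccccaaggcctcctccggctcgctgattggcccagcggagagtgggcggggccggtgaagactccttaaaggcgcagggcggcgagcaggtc
Hspb1, chr5:135887669-135887918, + strand: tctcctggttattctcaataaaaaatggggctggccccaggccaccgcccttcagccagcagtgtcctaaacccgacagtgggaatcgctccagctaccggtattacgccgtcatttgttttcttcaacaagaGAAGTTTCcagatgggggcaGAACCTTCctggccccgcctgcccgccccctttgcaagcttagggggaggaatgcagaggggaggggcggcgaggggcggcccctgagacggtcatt
Hspa5, chr2:34771840-34772089, + strand: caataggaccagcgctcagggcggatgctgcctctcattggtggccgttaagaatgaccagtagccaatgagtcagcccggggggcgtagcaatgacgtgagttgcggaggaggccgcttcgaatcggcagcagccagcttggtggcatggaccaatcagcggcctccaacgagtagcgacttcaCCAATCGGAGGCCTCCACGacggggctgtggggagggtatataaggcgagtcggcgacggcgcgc
Creld2, chr15:88819396-88819645, + strand: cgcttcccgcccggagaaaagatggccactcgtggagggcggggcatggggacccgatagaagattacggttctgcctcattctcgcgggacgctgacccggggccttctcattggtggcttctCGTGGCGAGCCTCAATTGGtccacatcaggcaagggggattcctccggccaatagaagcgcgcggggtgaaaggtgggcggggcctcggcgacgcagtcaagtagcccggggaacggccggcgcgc
The elements begin 104 bases before the start in Hspa1a, 117 and 97 bases before it in Hspb1, 65 in Hspa5 and 126 in Creld2.

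Other stress groups shared the high place of replicates 1 and 2. Of the immediate early genes, which answer injury and growth signals within minutes, 20 of 26 were tested, 20 varied beyond counting noise (39.3% of all genes) and 7 beyond the trend (1.89% of all), the latter being Fosl1, Fos, Zfp36, Egr1, Atf3, Junb and Jund. Egr1, a zinc finger factor, was at 82.9, 175, 33.9, 134, 36.3 and 24.3 rpm, highest in replicates 2 and 4. Fos was at 7.86, 42.1, 4.63, 15.0, 8.82 and 7.08 rpm, with replicate 2 alone high. Jun was at 185, 136, 87.9, 95.6, 80.3 and 54.6 rpm, in the order of Hmox1 except that replicate 4 lay above replicate 3. Beyond-trend calls were lost for Zfp36 without replicate 1 (0.533), Atf3 without replicate 1 or 4 (0.166 to 0.484), Junb without replicate 2, 3, 4, 5 or 6 (0.0813 to 0.323) and Jund without replicate 1, 3, 4 or 6 (0.0504 to 1.00), with the adjusted p in parentheses. The highest library exceeded the lowest by a median of 3.57 times over these 20 genes, beside 2.58 times for ER chaperone and 2.25 times for heat shock genes.

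The integrated stress response (genes downstream of the factor ATF4) had 17 of 20 genes tested. Of them 12 varied beyond counting noise (39.3% of all genes) and 2 beyond the trend (1.89% of all), Ppp1r15a and Slc3a2. Ppp1r15a (GADD34), which restores translation after stress, was at 127, 86.6, 50.9, 39.1, 29.4 and 26.3 rpm. For p53 targets 14 of 18 were tested, 8 varied beyond counting noise and 3 beyond the trend (Cdkn1a, Plk3 and Gdf15), beside the same shares of all genes. Cdkn1a, the cell cycle inhibitor p21, was at 422, 288, 159, 147, 128 and 80.9 rpm (5.21-fold, edgeR adjusted p = 9.4e-05), and Gdf15, a stress hormone, at 271, 263, 114, 115, 101 and 104 rpm. In each of these 3 genes replicate 1 was highest and replicate 2 second. Calls beyond the trend were lost for Ppp1r15a without replicate 1 (0.129), Slc3a2 without replicate 1 or 5 (0.0658 to 0.76), Plk3 without replicate 1 or 5 (0.101 to 0.143) and Gdf15 without replicate 1, 2 or 5 (0.0591 to 0.107) (adjusted p in parentheses).

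Antioxidant genes split into variable and steady members. Of 23 targets of the oxidant sensor NRF2, 19 were tested. Of these, 17 varied beyond counting noise (39.3% of all genes) and 3 beyond the trend (1.89% of all), Osgin1, Srxn1 and Gstm1. Srxn1, sulfiredoxin, was at 1199, 891, 475, 493, 308 and 324 rpm, with replicates 1 and 2 above the others (adjusted p = 0.000376 by edgeR). Nqo1, the quinone reductase often read as the NRF2 marker, was at 618, 698, 606, 702, 609 and 506 rpm, and Prdx1 stayed within 1.36 times. Among 17 tested genes of heme and iron handling, 7 (beside 39.3% of all tested genes) passed the first test and 3 (beside 1.89%) the second: Hmox1, Alas1 and Hp. Alas1, the first enzyme of heme synthesis, was at 194, 124, 72.5, 97.9, 99.0 and 42.5 rpm, highest in replicate 1 like Hmox1. Hp, haptoglobin, was at 2.62, 42.1, 20.1, 10.4, 19.6 and 6.07 rpm and lowest in replicate 1. Blvra, the biliverdin reductase that acts on the product of heme oxygenase, was at 123, 133, 209.8, 243, 201 and 279 rpm and was lowest where Hmox1 was highest. Fth1 was within 1.22 times in all 6 libraries. Beyond-trend calls were lost for Osgin1 without replicate 1 or 6 (0.167 to 0.875), Gstm1 without replicate 1, 3 or 6 (0.0576 to 0.57), Alas1 without replicate 1 or 6 (0.434 to 0.437) and Hp without replicate 1 (0.0593) (adjusted p in parentheses).

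Metal and immune genes added single strong members. Mt1, a zinc-binding metallothionein, was at 5566, 4194, 2582, 3504, 1972 and 1905 rpm and Mt2 at 602, 605, 461, 472, 418 and 299 rpm. Both passed only the first test. In the MHC list, 9 of 12 were tested, 6 varied beyond counting noise (39.3% of all genes) and 2 beyond the trend (1.89% of all). These were Cd74, the invariant chain of class II, at 158, 133, 81.8, 67.9, 65.6 and 41.5 rpm, and Tapbp, a peptide loading factor, at 119, 84.3, 33.9, 54.1, 41.1 and 27.3 rpm. Cd74 also marks antigen-presenting cells. The macrophage and monocyte list, which holds Cd74, had 7 of 18 genes tested, 4 beyond counting noise (39.3% of all genes) and 1 beyond the trend (1.89%). Its summed level was 381, 278, 258, 219, 234 and 249 rpm, with replicate 1 apart. In replicate 1 Cd74 gave 158 of the 381 rpm, and replicate 1 was highest for 2 of the 7 tested genes of this list. Of its genes, Cd68 was at 44.5, 26.2, 18.5, 33.4, 8.82 and 28.3 rpm, C1qb ran from 18.2 to 31.4 rpm without passing the first test, and Adgre1 had 2 reads in all. The dendritic cell list had 0 of 10 genes tested, 2 at 0 reads, and a summed level of 24.4, 21.6, 10.8, 11.5, 14.7 and 11.1 rpm. The part of these cells in the Cd74 values was not tested. The calls were lost for Cd74 without replicate 1, 2, 4, 5 or 6 (0.0534 to 0.277) and Tapbp without replicate 1 or 6 (0.0715 to 0.293), adjusted p in parentheses. B2m, the light chain of class I, was at 354, 246, 231, 198, 243 and 207 rpm, with replicate 1 apart.

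**Figure D3:**
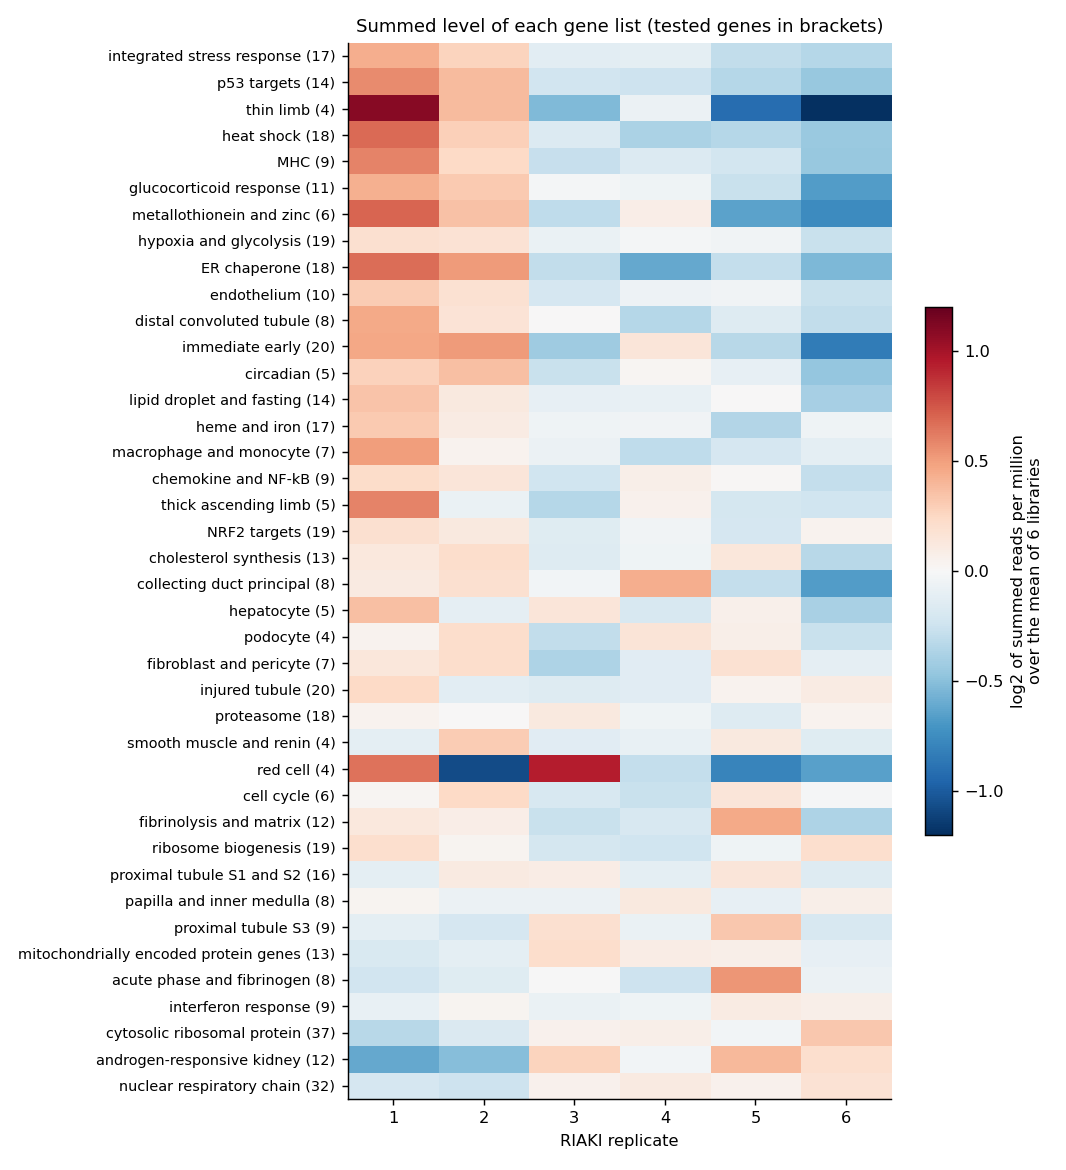
Summed level of each gene list with at least 3 tested genes, as log2 of its rpm over the mean of the 6 libraries, one column per replicate, lists ordered by their correlation with Hmox1. Red cells are above the mean and blue cells below it. Heat shock and ER chaperone lists are red in replicates 1 and 2, and cytosolic ribosomal protein genes are blue there and highest in replicate 6 on this scaling without rRNA.

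Ribosomal protein genes had the opposite order of animals in the levels without rRNA. There 2 of 37 had r above 0 with Hmox1, beside 62.4% of all tested genes. With rRNA in the total 16 of 37 did, beside 84.8% of all. All 37 were tested, 35 varied beyond counting noise and 0 beyond the trend, beside 39.3% and 1.89% of all genes. Of the 660 genes with a mean of at least 200 reads, 619 passed the first test. The highest library of the 37 genes exceeded the lowest by 1.14 to 2.09 times. Their summed level was 33040.4, 37002, 43295, 43892, 40680.5 and 52260.5 rpm, lowest in replicate 1 and highest in replicate 6. Rpl11, of the large subunit, was at 1041, 1297, 1556, 1693, 1625 and 2176 rpm, and Rps14, of the small subunit, at 1725, 2197, 2920.1, 3073, 2531 and 3209 rpm (Rps14 named after its values were seen). Rplp0 was highest in replicate 1, at 1032, 1005, 970.3, 941, 905 and 953 rpm, and Rpl8 was among the steadiest genes. Ribosomal protein genes have many processed copies, and Rpl13a and Rps27 had 7.36% and 12.9% of reads mapped to 1 place.

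Of 18 proteasome genes, which serve protein turnover, 15 varied beyond counting noise and 1 beyond the trend, beside 39.3% and 1.89% of all genes. Replicate 1 was highest for 11 of the 18, and for 938 of the 2749 genes of any kind that passed the first test. The summed level was 14943, 14609.7, 15727, 13986, 13028 and 14919 rpm, highest in replicate 3, and Psma7, of the proteasome core, was lowest in replicate 1, at 3792, 5069.6, 6897, 6236, 5594 and 6954 rpm. Psmb2, a subunit of the same core, was at 417, 221, 213, 204, 194 and 199 rpm, with replicate 1 apart from the other libraries.

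Nuclear genes of the respiratory chain were also lower in replicates 1 and 2, with a summed level of 17524, 16940.1, 20888, 21735, 20895 and 22687 rpm. The r with Hmox1 was above 0 in 7 of 32, beside 62.4% of all tested genes. With rRNA in the total it was so in 21 of 32, beside 84.8% of all. Of 32, 25 varied beyond counting noise and 0 beyond the trend, beside 39.3% and 1.89% of all genes. Ndufa4 was at 1503, 1420.3, 1941, 2194, 2284 and 2313 rpm and Cox7a2 at 1272, 1396, 1927, 2136, 1999.7 and 2135 rpm, whereas Cox5a was highest in replicate 1, at 509.8, 328, 222, 299, 299.8 and 234 rpm. The 13 genes of the mitochondrial genome did not move as a block. mt-Co3 and mt-Nd3 were lowest in replicate 1, mt-Nd3 at 3189, 4721, 7506, 7004, 5993 and 6429 rpm. mt-Nd5 was highest there and lowest in replicate 6, at 5695, 4739, 4106, 3934, 3786 and 2424 rpm. The median correlation between pairs of these 13 genes was 0.19, beside 0.73 between ribosomal protein genes and 0.048 between all 4742 genes with a mean of at least 20 reads. These correlations are over 6 libraries of 1 normalisation and are given as a description.

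Injury markers of the tubule did not rank the animals alike. Havcr1 (ENSMUSG00000040405, chr11:46735080-46779578, + strand) was at 1132, 1096, 1228, 1509, 1427 and 1809 rpm, highest in replicate 6 and lowest in replicates 1 and 2. Its mean was 1367 ± 271 rpm (SD, n = 6), its excess CV 19.6%, and it passed the first test and not the second (edgeR adjusted p = 1.00). Hmox1 (ENSMUSG00000005413, chr8:75093621-75100589, + strand) was at 525, 413, 211, 198, 147 and 121 rpm, highest in replicate 1 and lowest in replicate 6. Its excess CV of 59.9% lay beyond the trend (edgeR adjusted p = 0.00012), with 4.33 times between the extremes. Lcn2, which encodes the injury marker NGAL, was at 553, 448, 413, 455, 315 and 231 rpm, also highest in replicate 1 and lowest in replicate 6. It passed the first test only.

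Of 22 genes of injured tubule cells, 20 were tested. Of these, 15 varied beyond counting noise (39.3% of all genes) and 2 beyond the trend (1.89% of all), Cdkn1a and Sox9. Sox9, a factor of regenerating tubule cells, was at 241, 214, 126, 155, 134 and 56.6 rpm. Clu, the extracellular chaperone clusterin, was at 1344, 984, 673, 719.6, 685 and 568 rpm, Krt20, an intermediate filament of injured epithelium, at 379, 328, 221, 271, 186 and 169.9 rpm, and Plaur, the urokinase receptor, at 397, 264, 179, 179.6, 170.5 and 152 rpm. All 4 genes were highest in replicate 1 and lowest in replicate 6. Spp1 was not: it was high in replicates 1, 5 and 6, at 8555, 6106, 6589.9, 6409.6, 8529.8 and 8637 rpm. Tnfrsf12a, the TWEAK receptor, was steady at 473, 503, 439.6, 479, 411 and 470.3 rpm. The call was lost for Sox9 without replicate 1 or 6 (0.0505 to 0.937), adjusted p in parentheses. Clu, Krt20 and Tnfrsf12a were named after their values were seen.

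Across the 6 animals Havcr1 and Hmox1 ran in opposite order. Pearson's r of the log2 levels was -0.88 (exact permutation p = 0.0194, 2-sided) and Spearman's rho -0.89 (exact permutation p = 0.0333). Without replicates 2 and 6, the 2 farthest from the Havcr1 median, r was -0.80, and in replicates 3 to 6 it was -0.80 (exact permutation p = 0.208, where 4 libraries allow no p under 0.0417). Leaving out 1 library, the relation of Havcr1 with Hmox1 had r of -0.93 to -0.84, and its exact permutation p was 0.05 to 0.133 without replicate 1, 2, 3, 5 or 6 and 0.0417 without replicate 4. It depended on the total used for scaling. With mt-Rnr1 and mt-Rnr2 kept in the total, r was -0.22 (exact permutation p = 0.693), whereas under TMM and under DESeq2 size factors it was -0.93. The mitochondrial rRNA share itself was 34.1% in replicate 1 and 58.9% in replicate 3, and its r was 0.29 with Havcr1 (rho 0.54, exact permutation p = 0.606 and 0.297) and -0.60 with Hmox1 (rho -0.49, exact permutation p = 0.211 and 0.356). Of 10 relations of library measures (size, rRNA share, intron share, genes detected, unique share) with these 2 genes, 0 passed after adjustment, the strongest being the intron share with Havcr1 (r = -0.77, rho = -0.77, exact permutation p = 0.0778 and 0.103, adjusted 0.604, and -0.82 without replicates 1 and 4).

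**Figure D4:**
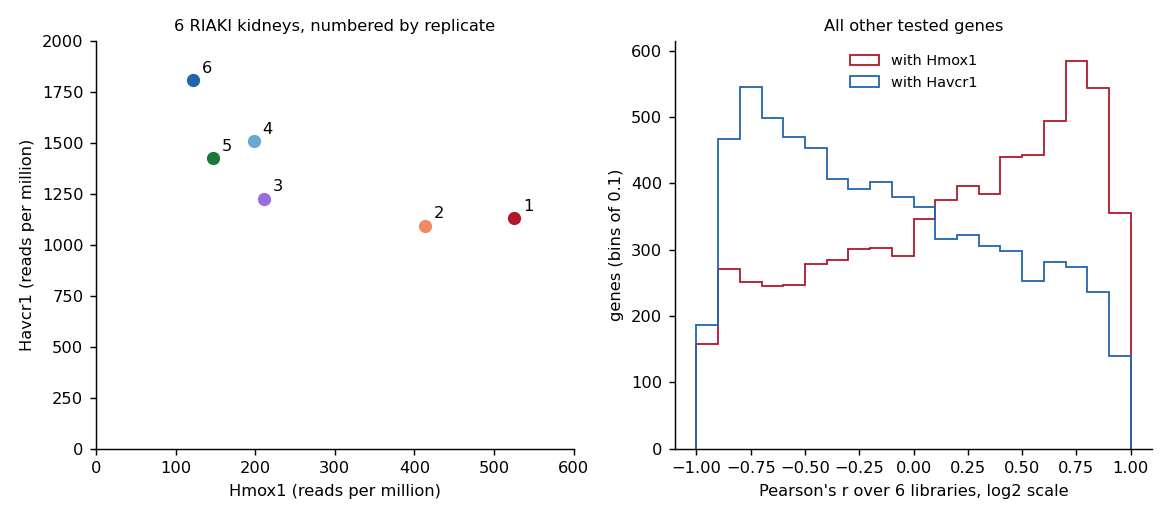
Left, Havcr1 against Hmox1 in rpm, one numbered point per RIAKI replicate: replicates 1 and 2 are high in Hmox1 and low in Havcr1, and replicate 6 the reverse. Right, number of tested genes by Pearson's r with either gene over 6 libraries in bins of 0.1; more genes lie above 0 with Hmox1 and below 0 with Havcr1.

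No gene passed the adjustment for correlation with either marker, as 6 libraries allow no exact p under 0.00139 and 6992 genes were tested. At an unadjusted p under 0.05, 923 genes (13.2%) correlated with Havcr1, 350 (5.01%) with r above 0 and 573 (8.2%) below it. With Hmox1 these numbers were 1196 (17.1%), 813 (11.6%) and 383 (5.48%). The smallest adjusted p was 0.277 for Havcr1 and 0.172 for Hmox1. Leaving out replicate 1, 2 or 6 lowered the genes correlated with Havcr1 to 464, 424 and 419 and the genes correlated with Hmox1 to 518, 612 and 619, with 5 libraries in the test. The split by sign moved with the scaling. TMM gave 569 above and 496 below 0 for Havcr1 and 551 and 571 for Hmox1, DESeq2 size factors gave 588 and 473, and 534 and 595, and the total with rRNA gave 496 and 6, and 1477 and 50. A correction for base composition, added after seeing the data, gave 506 and 504, and 617 and 551.

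Groups could be set beside that background. The r with Hmox1 was above 0 for 62.4% of all tested genes, for 18 of 18 heat shock, 18 of 18 ER chaperone, 20 of 20 immediate early, 13 of 14 p53 and 2 of 37 ribosomal protein genes. Under TMM the background was 51.3%, and these counts became 16, 18, 20, 13 and 0. With rRNA in the total the background was 84.8%, and they became 18, 18, 20, 13 and 16. With rRNA counted, 16 of 37 ribosomal protein genes were thus above 0, still under the 84.8% of all genes. The stress lists kept their side with Hmox1, where most genes then lay. With Havcr1, r was above 0 in 0 of 18 heat shock, 0 of 18 ER chaperone, 0 of 20 immediate early and 2 of 14 p53 genes. The counts were 36 of 37 for ribosomal protein genes and 2792 for all 6992. With rRNA in the total they became 9, 9, 9, 6, 37 and 5145, so the stress lists no longer lay nearly all below 0 with Havcr1. Of 80 relations between a list's summed level and Havcr1 or Hmox1, 29 had an exact permutation p under 0.05 before adjustment and 0 after it.

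By the naming rule the genes most like Hmox1 were Zc3hav1 (a zinc finger antiviral protein), Ppp1r15a, Hspb1, Srxn1, Lmna (nuclear lamin A), Shisa5, Sh3bgrl3 and Qtrt2. Their r was 0.99 in each, their rho 0.89 to 1.00 and their exact permutation p 0.00139 to 0.00556, adjusted 0.172 to 0.173. In replicates 3 to 6, the 4 libraries left once the 2 farthest from the Hmox1 median were dropped, r was 0.91 to 0.97. These genes were picked by their r over all 6 libraries, which include these 4, so this is not a separate check. Zc3hav1 also varied beyond the trend, a call lost for Zc3hav1 without replicate 1, 2 or 6 (0.0744 to 0.167), adjusted p in parentheses. It was at 161, 146, 74.0, 66.8, 60.7 and 46.5 rpm and Lmna at 388, 378, 251, 268, 213 and 200.3 rpm, both in nearly the same order of animals as Hmox1. The most opposed were Rps27a, Rpl36a, Nme2, Timd2, Immp1l, Rpl26, Sf3b6 and Echs1, with r of -0.997 to -0.980, exact permutation p of 0.00139 to 0.00278 and adjusted p of 0.172. Rps27a, a fusion of ubiquitin and a ribosomal protein, was at 679, 772, 967, 1030.5, 1171 and 1249 rpm. Rpl36a and Nme2 had 34.0% and 19.4% of their reads mapped to 1 place.

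The genes most like Havcr1 were Grcc10, Lage3, Rps23, Rps25, Rps24, Mrpl53 and Ost4, with 1 predicted gene beside them, at r of 0.98 to 0.99. The exact permutation p was 0.00139 to 0.00417 and the adjusted p 0.277 to 0.286. Rps25 was at 2455, 2517, 2718, 3121, 3121 and 3711 rpm and Ost4, of the oligosaccharyltransferase, at 802, 776, 864, 1029, 1051 and 1174 rpm. Mrpl53 had 0.082% and Grcc10 28.1% of reads mapped to 1 place. Timd2, which lies next to Havcr1 on chromosome 11 (chr11:46668960-46707061, - strand) and belongs to the same TIM family of receptors, was at 141, 149, 202, 207, 219 and 261 rpm, with r of 0.92 with Havcr1 (rho 0.89, exact permutation p = 0.00833 and 0.0333, adjusted 0.288, and r of 0.80 without the 2 farthest libraries).

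Of the 8 genes most opposed to Havcr1, Slc34a1, the sodium phosphate cotransporter NaPi-IIa of the proximal tubule, was at 226, 254, 191, 144, 169 and 102 rpm, the exact reverse order of Havcr1. Its r was -0.99 and its rho -1 (exact permutation p = 0.00139 and 0.00278, adjusted 0.277), and r was -0.98 without the 2 libraries farthest from the Havcr1 median. Slc34a1 was picked by its r over all 6 libraries, so the last value is not a separate check. Miox, the inositol oxygenase of the same cells, was at 215, 216, 209.8, 172, 170.5 and 144 rpm. The other 6 were Tmem248, Il34 (a macrophage growth factor made by tubule cells), Rad23b, Dyrk1a, Gsk3a and Pdxk, with r of -0.99 to -0.98, exact permutation p of 0.00139 to 0.00556 and adjusted p of 0.277 to 0.288.

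**Figure D5:**
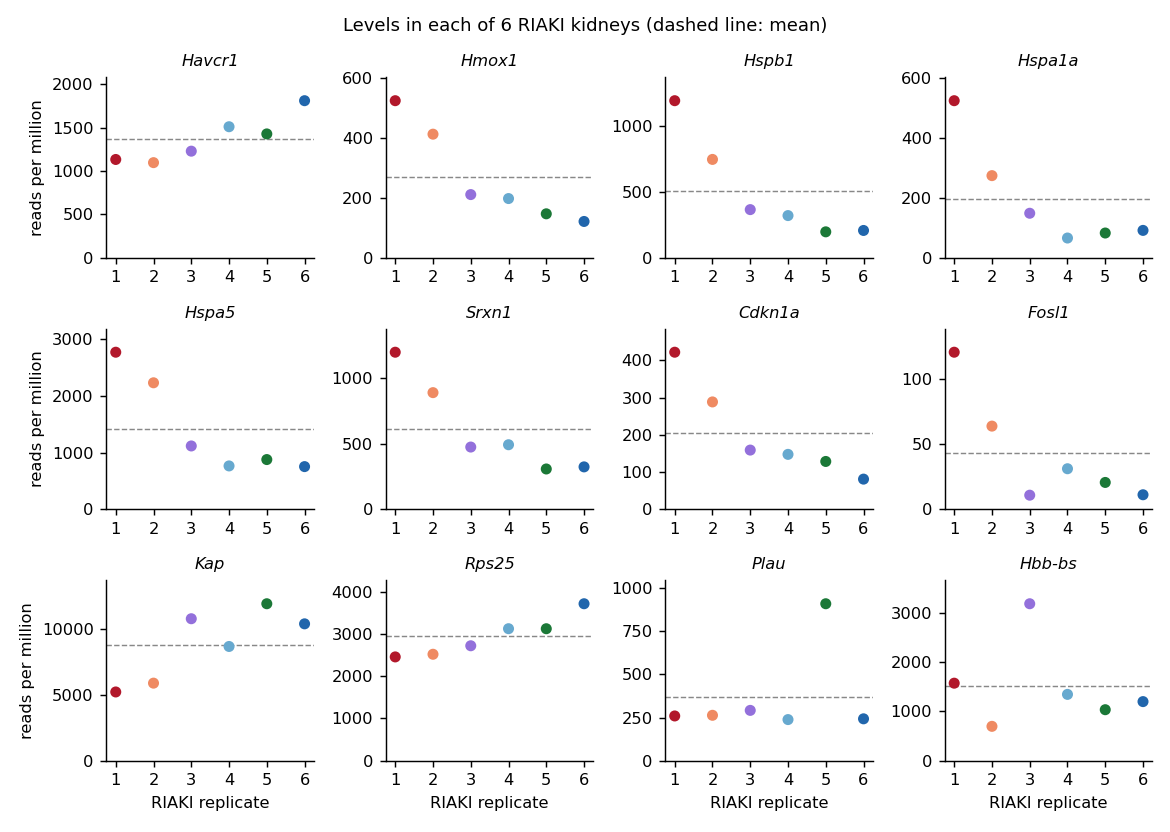
Levels of 12 genes in rpm in each RIAKI replicate, with the mean as a dashed line and axes from 0. Hmox1, Hspb1, Hspa1a, Hspa5, Srxn1, Cdkn1a and Fosl1 are highest in replicate 1, Havcr1 and Rps25 in replicate 6, Kap and Plau in replicate 5 and Hbb-bs in replicate 3.

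Other nephron markers followed Slc34a1 only in part. Of 16 tested genes of the first proximal tubule segments, 13 varied beyond counting noise (39.3% of all genes) and 0 beyond the trend (1.89% of all). The summed level of this list was 3041, 3556, 3505, 3039.6, 3635 and 2963 rpm. In whole kidney, fewer cells of a type and less RNA per cell cannot be told apart. Of the 16 genes, 12 had r below 0 with Havcr1, the side of Slc34a1, and 4 above it. Of all tested genes 39.9% had r above 0 with Havcr1. At an unadjusted exact permutation p under 0.05, 4 of the 16 lay below 0 and 0 above it. The shares of all genes were 8.2% and 5.01%. Slc6a19, an amino acid transporter, was highest in replicate 6, at 223, 235, 273, 185, 187 and 326 rpm (named after its values were seen). Umod, the thick ascending limb protein uromodulin, was at 466, 265, 182, 265, 185 and 181 rpm, with replicate 1 apart. Aqp2, the water channel of the collecting duct, was at 187, 196, 188, 242, 105 and 52.6 rpm, lowest in replicates 5 and 6, and varied beyond the trend (edgeR adjusted p = 0.00733). So did Slc12a3, the thiazide-sensitive cotransporter of the distal convoluted tubule, at 55.9, 23.9, 40.1, 9.21, 16.7 and 19.2 rpm, and Col1a1, collagen of fibroblasts, at 106, 116, 18.5, 62.2, 72.5 and 17.2 rpm. The first 2 calls were lost for Aqp2 without replicate 6 (0.866) and Slc12a3 without replicate 1, 3, 4 or 5 (0.0598 to 0.625), adjusted p in parentheses. The partner chain Col1a2 ran from 44.5 to 65.6 rpm without passing the first test. Of 7 fibroblast and pericyte genes tested 2 passed the first test (39.3% of all genes) and 1 the second (1.89% of all).

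Globins ranked the animals differently. All 4 globin genes tested lay beyond the trend, beside 1.89% of all genes. Hbb-bs, an adult beta globin, was at 1570.3, 697, 3178, 1344, 1034 and 1198 rpm, highest in replicate 3, and Hba-a1, an alpha globin, at 1954, 469, 1701, 723, 486 and 491 rpm, highest in replicates 1 and 3. The Hbb-bs call was lost without replicate 3 (adjusted p = 0.969). The summed red cell level was 6719, 2033, 8185, 3505, 2458 and 2724 rpm. Between 40.1% and 57.4% of the reads of these genes mapped to 1 place, and globin genes come as near-identical pairs. Blood left in the kidney at harvest was not measured, and its part in these values was not tested.

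Replicate 5 had high genes of its own. A single library stood apart from the other 5 (by Dixon's ratio) in 408 of the tested genes (5.83%), high in replicate 5 in 72 of them and in replicate 1 in 125. Replicate 5 held the highest value of 23 of the 132 genes beyond the trend, the same number as replicate 2. Of the 2749 genes beyond counting noise it held the highest value of 353. Plau (ENSMUSG00000021822, chr14:20836660-20843385, + strand), the urokinase plasminogen activator secreted by tubule cells, was at 259, 263, 292, 238, 908 and 243 rpm (edgeR adjusted p = 9.9e-05). Ifngr1, a chain of the interferon gamma receptor, was at 40.2, 75.2, 41.6, 95.6, 213 and 66.8 rpm. Both genes were named by the rule, and the following by their values. Myh9, the heavy chain of non-muscle myosin, was at 435, 547, 293, 480.1, 951 and 199 rpm, and Cd36, the fatty acid scavenger receptor, at 306, 342, 358, 405, 935 and 493 rpm. Rbm45, an RNA-binding protein, was at 69.8, 63.8, 57.1, 55.3, 202 and 69.8 rpm, and Slc16a1, the lactate transporter MCT1, at 84.7, 60.4, 71.0, 47.2, 182 and 58.7 rpm. In these 6 genes replicate 5 was highest, and in Plau and Rbm45 the other 5 libraries lay close together. As the 6 were grouped here for that high value, a loss of the call without replicate 5 was largely set by the choice. All 6 lost the call without it, namely Plau without replicate 5 (1.00), Ifngr1 without replicate 5 (0.841), Myh9 without replicate 5 or 6 (0.0713 to 0.317), Cd36 without replicate 2, 3, 4 or 5 (0.0582 to 1.00), Rbm45 without replicate 5 (1.00) and Slc16a1 without replicate 4 or 5 (0.0922 to 1.00) (adjusted p in parentheses). Fibrinogen genes were highest in the same library: Fgg was at 204, 179, 267, 219.9, 431 and 286 rpm, Fgb at 68.1, 66.1, 74.0, 59.9, 122 and 57.7 rpm and Fga at 52.4, 64.9, 55.5, 65.6, 97.0 and 62.7 rpm, all beyond counting noise and none beyond the trend.

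A few other genes beyond the trend had single extreme libraries, some of them with nearly all reads shared between copies. Ugt1a10 was read at 0, 0, 0, 109, 0 and 1.01 rpm and Ugt1a8, which shares its 3′ exons, at 147, 157, 134, 0, 159 and 124 rpm. Without replicate 4, Ugt1a8 lost its call (adjusted p = 1.00). Replicate 4 alone had the first in place of the second, and their sum ran from 109 to 159 rpm. At most 1.04% of these reads mapped to 1 place. Lars2, a mitochondrial leucyl-tRNA synthetase, was at 114, 614, 398, 499, 412 and 212 rpm, lowest in replicate 1 and highest in replicate 2, with 99.9% of reads in 1 place, and it lost its call without replicate 1 (adjusted p = 0.175). These genes were named after their values were seen.

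The steadiest abundant genes were taken by their spread. Among 660 genes with a mean of at least 200 reads per library, 41 did not pass the test against counting noise. The 10 with the smallest spread were Cdc42, Tuba1b, Ppp1ca, Ndfip1, Bsg, Rpl8, Cyp2a5, Ndufab1, Ethe1 and Psmb4, whose highest library was 1.12 to 1.20 times the lowest. Cdc42, a small GTPase of the cytoskeleton, was at 311, 330.3, 318, 309, 315 and 293 rpm, and Bsg, the transporter partner basigin, at 416, 395, 444, 425, 396 and 429 rpm. Actb and Gapdh, often used as references, were wider, Gapdh at 610.1, 554, 464, 463, 449.7 and 333 rpm (1.83-fold, named after its values were seen).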

How the data were processed

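The authors prepared 3′ libraries of whole kidney RNA with the QIAseq UPX 3′ kit, which tags each molecule, and deposited per library a table of genes with counts of exon, intron and uniquely mapped reads on GRCm38. The deposited total exon counts were used. The TPM columns of the same tables were not used. Reads of mt-Rnr1 and mt-Rnr2 were left out of the library size, and levels are counts per 1000000 of the remainder (rpm). Values after ± are the SD over the 6 mice, and the floor of 3 reads covers counting error only. All 6 RIAKI libraries entered, with 1 library per mouse, so that animal and library preparation cannot be told apart. The goodness of fit p-values set the spread between libraries against counting error or the dispersion trend. The correlation p-values come from reordering the libraries. Of 41740 genes listed, 41682 were matched to an annotated transcript by Ensembl gene identifier. Genes with at least 60 reads summed over the 6 libraries (6993) were tested. Excess CV is the root of the observed squared CV minus the counting squared CV. Variation was tested with goodness of fit in edgeR 4.0.16 (R 4.3.3) at dispersion 0 and at the trended dispersion. Correlations are Pearson's r of log2(rpm + 1), with 2-sided exact permutation over 720 orders of the libraries. Gene p-values were adjusted by Benjamini-Hochberg over all tested genes at 0.05, and those of lists or library measures over their family. numpy 2.4.6, pandas 2.3.3, scipy 1.17.1 and matplotlib 3.10.9 were used. The scripts were tested on simulated data.

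Genes were named by rule: the 25 with the highest mean, the 25 with the largest excess CV among those beyond the trend with a mean of at least 20 reads, Havcr1 and Hmox1 with the 8 genes of highest and 8 of lowest r, up to 4 members of each list by excess CV (any member of a list of 13 or fewer genes), and the 10 steadiest genes with a mean of at least 200 reads. Atf3, C1qb, Calr, Canx, Cd36, Clu, Col1a2, Dnaja1, Dnajb1, Dnajc3, Emcn, Fga, Gapdh, Hsp90b1, Hspa1b, Hspa8, Hspd1, Hspe1, Hsph1, Hyou1, Jun, Junb, Jund, Krt20, Lars2, Lcn2, Lrp2, Myh9, Ndufa4, Nqo1, Pdia6, Rbm45, Rplp0, Rps14, Slc16a1, Slc3a2, Slc5a2, Slc6a19, Tnfrsf12a, Ugt1a10 and Ugt1a8 were named outside that rule, after their values were seen. Lists and groups of genes were chosen with earlier results of these data known. Alternatives were TMM and DESeq2 1.42.0 size factors, a library size that includes mitochondrial rRNA, read minimums of 10 and 300 or none, a pseudocount of 5, Spearman's rho, and leaving out each replicate. Replicates 3 to 6 alone and a correction for base composition were added after seeing the data. A few genes are not reported here.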

Additional observations from a re-analysis of the deposited data

Results flagged for a closer look

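In a group of 6 libraries, 1 library was taken as standing apart where its gap to the nearest other library was larger, as a share of the whole range, than Dixon's critical value (the share is printed for each gene). Chance flags about 1 in 20 groups, and 408 of the tested genes (5.83%) were so. Replicate 1 stood above the others for Psmb2 (0.879), Umod (0.704), B2m (0.693), Snrpa (0.691), Cx3cl1 (0.669), Gm47283 (0.663), Bag3 (0.660), Herpud1 (0.657) and Cox5a (0.632), and for the summed levels of the thick ascending limb list (0.662) and the macrophage and monocyte list (0.636). In these sums replicate 1 held 466 of 669.5 rpm from Umod and 158 of 381 rpm from Cd74. It was highest for 2 of 5 and 2 of 7 tested genes, so the sums do not stand for each list as a whole. Replicate 2 did so for Ccnd1 (0.844) and Fos (0.724). Replicate 3 did so for Gm42418 (0.756) and Hbb-bs (0.648). Replicate 5 did so for Plau (0.921), Rbm45 (0.901), Fgb (0.747), Slc16a1 (0.723), Cd36 (0.704), Fga (0.703) and Ifngr1 (0.679), and for the summed level of the acute phase and fibrinogen list (0.744). Most of that sum in replicate 5, 794 rpm, came from the fibrinogen genes described above, so it does not stand for the list as a whole either. Replicate 4 stood above the others for Ugt1a10 (0.991) and below them for Ugt1a8 (0.784), the pair of shared reads described above.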

How the results depend on the processing

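No paired analysis was possible because only the RIAKI group entered and no groups were compared. Counting mitochondrial rRNA in the library size gave 4438 genes varying beyond counting noise in place of 2749, 73 genes varying beyond the dispersion trend in place of 132, 502 genes correlated with Havcr1 in place of 923, and an r of -0.22 between Havcr1 and Hmox1 (exact permutation p = 0.693). Under TMM and under DESeq2 size factors that r was -0.93. A minimum of 300 reads, by which fewer genes are tested, gave 1690, 86, 452 and 609 (genes correlated with Hmox1, in place of 1196). Spearman's rho gave 684 genes with Hmox1. DESeq2 dispersion outliers gave 51 genes beyond the trend and Holm's adjustment 47. In replicates 3 to 6, 1207 and 70 genes passed the 2 tests, and r between Havcr1 and Hmox1 was -0.80. Leaving out each replicate gave 1933 to 2668 genes beyond counting noise, 86 to 107 beyond the trend, 419 to 845 with Havcr1, 518 to 934 with Hmox1, and an r between them of -0.93 to -0.84 (exact permutation p = 0.0417 to 0.133). Of 80 relations of lists with the 2 genes, 0 passed adjustment, against 3 under TMM, 3 under DESeq2 size factors and 11 with correction for base composition. The cause of these shifts was not tested. Against the main scaling, TMM moved the median gene by -0.0956 in replicate 1 to 0.106 in replicate 3 (log2), and the total with rRNA by 0.307 to -0.375. Relations of summed lists with Havcr1 could change sign, r running from -0.98 to 0.13 for hypoxia and glycolysis and from -0.90 to 0.03 for the integrated stress response. Depth limits genes under about 60 reads in all.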

Other observations

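Several gene groups not described above held few genes beyond the trend. Their counts stand beside 39.3% of all tested genes beyond counting noise and 1.89% beyond the trend. Of 19 tested genes of hypoxia and glycolysis, 12 varied beyond counting noise and 0 beyond the trend. Adm, the vasodilator adrenomedullin, was at 60.2, 50.1, 20.1, 34.5, 24.5 and 13.1 rpm and Pkm, pyruvate kinase, at 265, 178, 164, 135, 121 and 99.1 rpm, both highest in replicate 1 and lowest in replicate 6. Of 9 interferon response genes 3 passed the first test and 0 the second. Ifi27l2a, an interferon-induced mitochondrial protein, was at 12.2, 17.1, 24.7, 18.4, 28.4 and 48.5 rpm, highest in replicate 6. Of 9 chemokine genes 5 passed the first test and 1 the second, Cx3cl1, a membrane-bound chemokine, at 62.0, 28.5, 12.3, 28.8, 18.6 and 14.2 rpm. That call was lost for Cx3cl1 without replicate 1, 3, 5 or 6 (0.0567 to 1.00), adjusted p in parentheses.

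Of 6 tested cell cycle genes 1 varied beyond counting noise, Ccnd1, the G1 cyclin D1, at 119.6, 219, 125, 123, 132 and 116 rpm, with replicate 2 apart. Of 14 genes of fasting and lipid handling 11 passed the first test and 0 the second. Acot2, a mitochondrial acyl-CoA thioesterase, was at 735, 679, 438, 403, 399 and 316 rpm, in the order of Hmox1. Among endothelial genes, Plvap, of the fenestral diaphragm, varied beyond the trend, at 76.8, 67.2, 33.9, 46.1, 27.4 and 17.2 rpm, and Emcn, a general endothelial marker, was at 41.0, 31.9, 37.0, 36.8, 37.2 and 41.5 rpm. The call was lost for Plvap without replicate 1, 2, 5 or 6 (0.0872 to 0.469), adjusted p in parentheses.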
